A study of Rattus norvegicus with 9 samples.

Results

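The genes described here are 9 enzymes of heme synthesis and breakdown: Alas1, Alas2, Alad, Uros, Urod, Cpox, Ppox, Fech and Hmox1. They were chosen by gene symbol, with earlier results of these data known. Each was represented by the probe set of that symbol with the highest mean over all arrays. In this way 9 of 29214 probe sets with values are described. RNA came from untreated young male Wistar rats, a common laboratory strain, and from 3 tissues: whole blood, the hippocampus (HC) and the prefrontal cortex (PFC). Rats 2, 5 and 7 each gave 1 Affymetrix Rat Gene 1.0 ST array per tissue, which makes 9 arrays, 3 per tissue and 6 from brain. Blood was drawn into tubes that stabilize RNA and was extracted with another kit than the punched brain tissue, so tissue and extraction method cannot be told apart. The values are RMA summaries of probe intensities on the log2 scale, in which a difference of 1 is 1 doubling. Presence in a tissue means a mean above 6.2 there. The study's methods give this limit and also ask for a detection p-value, which was not used here.

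Heme is the iron-containing ring of hemoglobin, the cytochromes and other oxygen-handling proteins. Its synthesis starts and ends in the mitochondrion and runs through the cytosol in between. The opening step is carried out by ALAS1 in all cells, where heme itself restrains it, and by ALAS2 in developing red cells, where it follows the iron supply. ALAD, UROS, UROD, CPOX and PPOX are among the enzymes that then build the ring, FECH inserts the iron, and heme oxygenase opens the ring again when heme is broken down. Whole blood holds maturing red cells that still carry RNA, while brain makes heme for its own cytochromes among other proteins.

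Labelled tissues were checked against marker genes. All 15 erythroid markers and all 11 leukocyte markers on the array were lower in brain than in blood, and all 8 neuron, 6 astrocyte and 5 oligodendrocyte markers were higher. Of 8 microglia and macrophage markers, 3 were higher in brain and 4 lower. Most erythroid markers were still above background in brain: 11 of 15 exceeded the 95th percentile of 1298 probe sets of odorant, pheromone and taste receptors (5.53 in blood, 4.88 in HC and 4.85 in PFC). In all that follows, fewer cells of a type and less RNA per cell cannot be told apart in such bulk samples.

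The 9 enzymes did not differ between blood and brain in 1 direction. In limma, the mean of HC and PFC was above blood for 1 of 8 tested enzymes, Alas1, and below it for 6. Uros was not called, and Hmox1 was not tested because its mean was below 6.2 in each tissue. Over all 16884 probe sets tested, 48.8% were higher and 37.4% were lower in brain. These shares depended on the scaling of arrays, with 39.6% higher and 45.1% lower after a further quantile normalization, and 19.5% higher and 69.7% lower when arrays were set to the same mean over a housekeeping panel. Of the 8 enzymes, 1 was higher and 6 were lower in the former case, and none was higher and 7 were lower in the latter. The median difference of the 9 enzymes, brain minus blood, was -0.79, beside 0.22 over all probe sets tested. The spread among the enzymes was wide, from 1.21 for Alas1 to -7.62 for Alas2.

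The upstream sequences of 2 enzymes that bracket the pathway, Alas1 at its start and Fech at its end, are shown. They were picked because these genes went opposite ways between the tissues in the deposited values. With the housekeeping scaling Alas1 did not differ (-0.01, limma, adjusted p = 0.948). Alas2, the other enzyme of the opening step, went the same way as Fech and had no usable window. Each run is the 250 bases before the gene's start in RefSeq (assembly GRCr8), read on the gene's own strand. Capitals mark the motifs named after the sequences. Alas1 lies on the minus strand at chr8:115768643-115768892, and Fech on the minus strand at chr18:60248526-60248775.
Alas1: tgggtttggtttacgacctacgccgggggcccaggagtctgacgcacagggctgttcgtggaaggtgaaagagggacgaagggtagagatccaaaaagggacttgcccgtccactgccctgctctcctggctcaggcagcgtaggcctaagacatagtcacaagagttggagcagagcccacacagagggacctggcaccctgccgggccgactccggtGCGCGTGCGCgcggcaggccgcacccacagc
Fech: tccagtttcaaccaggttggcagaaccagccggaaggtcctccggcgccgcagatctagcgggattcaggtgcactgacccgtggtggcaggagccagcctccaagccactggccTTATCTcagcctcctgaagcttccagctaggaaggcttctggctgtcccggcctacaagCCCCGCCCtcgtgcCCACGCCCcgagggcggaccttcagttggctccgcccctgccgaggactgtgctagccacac

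In Alas1 the capitals are the motif of the nuclear respiratory factor NRF1 (GCGC, then any base, then TGCGC), whose leftmost base lies 31 bases before the start (position -31). This motif was found in 3.02% of 19334 windows of the same length at gene starts. A further NRF1 motif in Alas1 begins at position -2 and runs past the start. In Fech the capitals are 1 GATA motif (GATA with A or T before it and A or G after it, here on the other strand) at -135 and 2 matches to CCNCNCCC, which covers CACCC and GC boxes, at -76 and -62. The GATA motif was found in 29.6% of all windows and CCNCNCCC in 37.6%. Alas1 also held 1 match to CCNCNCCC at -13, which is left in lower case.

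Both strands were searched with 5 motifs in the 4 enzymes whose window reached a gene's start, which were Alas1, Alad, Urod and Fech. Alad held CCNCNCCC at the overlapping positions -177 and -175 and the E-box CACGTG at -223. Urod held CCNCNCCC at -30 and CACGTG at -75. The E-box was found in 5.01% of all windows. TGACNNNGC, the antioxidant response element, was in 9.49% of all windows and had no match in these 4. Of the 9 enzymes, 7 had an entry in the table, and the windows of Alas2, Uros and Ppox lay inside the gene's span and were not searched. A match describes the letters and is not evidence of binding. Nrf1 itself was lower in brain than in blood by -1.73 (adjusted p = 3.78e-09).

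**Figure D1:**
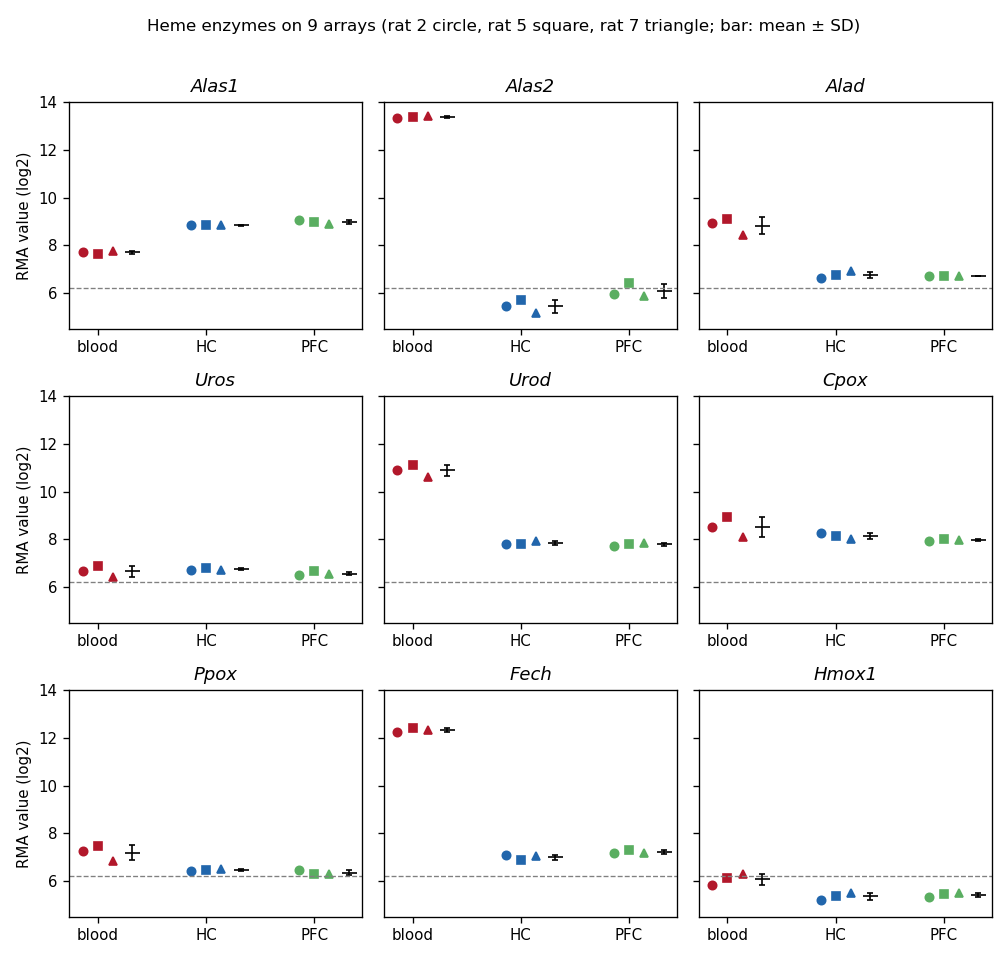
RMA values (log2, vertical axis) of the 9 enzymes on each array by tissue, with rat 2 as circles, rat 5 as squares and rat 7 as triangles; the bar beside each group is the mean ± SD (n = 3), and the dashed line is the presence limit of 6.2. The blood arrays stand far above the brain arrays for Alas2, Urod and Fech, below them for Alas1, and among them for Uros.

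The 2 forms of the entry enzyme stood apart most widely. Alas2, the red cell form, read 13.33, 13.38 and 13.42 in blood (rats 2, 5 and 7), 5.44, 5.69 and 5.16 in HC, and 5.96, 6.43 and 5.89 in PFC. Every blood array was more than 6 units above every brain array, with no overlap. Brain minus blood was -7.62 ± 0.142 (SE; 95% interval -7.94 to -7.30), a 196-fold lower level in brain (limma, adjusted p = 4.4e-11).

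The blood values of Alas2 lay close to the top of the scale, since the highest value of any probe set on a blood array was 13.97. Its means in HC (5.43) and PFC (6.09) were below the presence limit but above the receptor percentiles. Its reading in brain was therefore low, and the study's rule does not count it as present. Whether this reading goes beyond background was not tested. Its difference was -7.95 for HC and -7.29 for PFC against blood.

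Alas1, the form found in all tissues, read 7.73, 7.61 and 7.75 in blood, 8.83, 8.83 and 8.84 in HC, and 9.06, 8.99 and 8.88 in PFC. All 6 brain arrays were above all blood arrays, and the values within a tissue were close to each other. The HC arrays of rats 2 and 5 held an identical value of 8.83. Brain minus blood was 1.21 ± 0.0718 (SE; 95% interval 1.04 to 1.37), 2.31-fold higher in brain (adjusted p = 1.01e-07). The difference was 1.13 for HC and 1.28 for PFC.

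The higher reading of Alas1 in brain depended on how arrays were scaled. When arrays were set to the same mean over 12 housekeeping genes on the array, the difference was -0.01 (adjusted p = 0.948), and the median over all probe sets tested went from 0.22 to -0.99. These 12 genes were themselves all higher in brain in the deposited values, with a median difference of 1.20. This scaling shifts all probe sets of an array alike, so the distance of Alas1 from the median of all probe sets tested, 0.99, is the same by construction. After a further quantile normalization Alas1 was higher in brain by 0.73 (adjusted p = 5.56e-06), and 0.82 above the median of all probe sets. Alas2, in contrast, was lower in brain under each scaling tried.

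The cytosolic enzymes that follow differed in size, from no detectable difference to a wide one. Alad, which joins 2 molecules of aminolevulinic acid into porphobilinogen, read 8.93, 9.12 and 8.43 in blood, 6.64, 6.73 and 6.90 in HC, and 6.69, 6.70 and 6.71 in PFC. Blood and brain did not overlap, and brain minus blood was -2.10 ± 0.138 (SE; adjusted p = 2.18e-07), 4.28-fold lower.

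Uros, which closes the ring, read 6.66, 6.88 and 6.41 in blood, 6.72, 6.78 and 6.71 in HC, and 6.50, 6.65 and 6.53 in PFC. The blood arrays lay on both sides of the brain arrays. Brain minus blood was 0.0003 with a 95% interval of -0.23 to 0.23 (adjusted p = 0.998), so a difference of up to 0.23 either way lies within the interval. With the housekeeping scaling Uros was lower in brain by -1.21 (adjusted p = 2.1e-05).

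Urod, which trims the side chains of the ring, read 10.92, 11.10 and 10.63 in blood, 7.81, 7.78 and 7.91 in HC, and 7.72, 7.78 and 7.85 in PFC. Blood did not overlap with brain, and the difference was -3.08 ± 0.103 (SE; adjusted p = 1.58e-09), 8.45-fold lower in brain.

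The enzymes of the mitochondrion ranged from a small to a large difference. Cpox, which oxidizes coproporphyrinogen, read 8.51, 8.95 and 8.09 in blood, 8.26, 8.12 and 8.01 in HC, and 7.94, 8.03 and 7.98 in PFC. The blood array of rat 7 lay within the range of HC, so blood and brain overlapped. Brain minus blood was -0.46 ± 0.158 (SE; 95% interval -0.81 to -0.11; adjusted p = 0.0196), and it was -0.41, -0.88 and -0.10 within rats 2, 5 and 7.

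The call for Cpox rested on few arrays. Without the blood array of rat 5 the difference was -0.25 (adjusted p = 0.0728), without rat 2 it was -0.49 (adjusted p = 0.0996), and without rat 5 it was -0.25 (adjusted p = 0.148). By region, PFC minus blood was -0.54 (adjusted p = 0.0197) and HC minus blood was -0.39 (adjusted p = 0.0722). The PFC call was lost without the PFC array of rat 2 (adjusted p = 0.0547), without rat 2 (0.126) and without rat 5 (0.104). HC minus blood passed the test without the blood array of rat 7 (-0.60, adjusted p = 0.00297) and without rat 7 (-0.54, adjusted p = 0.0258).

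Other scalings moved the difference of Cpox either way. With arrays scaled on their medians, brain minus blood was -0.39 (adjusted p = 0.0343) and HC minus blood was -0.32 (adjusted p = 0.117). Brain minus blood was -0.92 (adjusted p = 0.00065) after a further quantile normalization and -1.67 (adjusted p = 2.91e-05) with the housekeeping scaling. HC minus blood passed the test in these 2 cases as well, at -0.85 (adjusted p = 0.00282) and -1.56 (adjusted p = 0.000149). Under the housekeeping scaling the distance of Cpox from the median of all probe sets tested, -0.68 in brain minus blood, is the same by construction.

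Ppox, which forms protoporphyrin, read 7.26, 7.44 and 6.84 in blood, 6.41, 6.43 and 6.50 in HC, and 6.45, 6.28 and 6.30 in PFC. All blood arrays were above all brain arrays, with brain minus blood at -0.79 ± 0.122 (SE; adjusted p = 0.00015), 1.73-fold lower. The brain values lay just above the presence limit.

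Fech, which places iron in the ring and completes heme, read 12.26, 12.43 and 12.34 in blood, 7.07, 6.86 and 7.03 in HC, and 7.15, 7.31 and 7.19 in PFC. The gap between the tissues was about 5 units on every array. The difference, brain minus blood, was -5.24 ± 0.0812 (SE; 95% interval -5.43 to -5.06), 37.9-fold lower (adjusted p = 1.94e-11). After Alas2 it was the widest difference among the 9 enzymes.

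Hmox1, the inducible heme oxygenase that opens the ring, read 5.81, 6.13 and 6.27 in blood, 5.21, 5.36 and 5.49 in HC, and 5.32, 5.44 and 5.48 in PFC. The blood array of rat 7 alone was above 6.2. All means were above the receptor percentile of their tissue, and the blood arrays were all above the brain arrays. Brain minus blood was -0.69 (95% interval -0.94 to -0.43). When all probe sets were tested with no filter on dim ones, Hmox1 was lower in brain (adjusted p = 0.000382). In that test 14500 of 29214 probe sets were lower in brain and 8764 higher, with a median difference of -0.31. The receptor percentile was also higher in blood (5.53) than in HC (4.88) and PFC (4.85). Whether the difference of Hmox1 goes beyond this shift of the background was not tested.

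**Figure D2:**
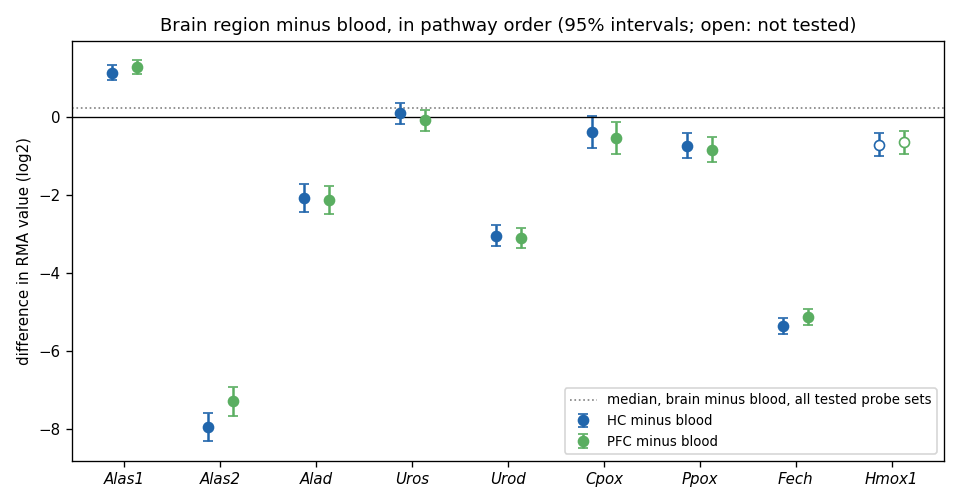
Difference in RMA value (log2, vertical axis) of HC minus blood and PFC minus blood for the 9 enzymes in pathway order; points are fitted differences with 95% intervals, open points were not tested, and the dotted line is the median of brain minus blood over all probe sets tested (0.22). Both regions give the same picture, with Alas1 above the line and Alas2 and Fech furthest below.

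By region, HC was above blood for 1 enzyme and below it for 5, where 47.6% of all tested probe sets were higher and 36.3% lower. PFC was above blood for 1 and below it for 6, where 47.3% were higher and 36.7% lower. Both regions were compared with the same blood arrays, so the 2 comparisons are not independent. Present by the limit of 6.2 were 8 of 9 enzymes in blood, 7 in HC and 7 in PFC. Alas1, Alad, Uros, Urod, Cpox, Ppox and Fech were present in all 3 tissues, Alas2 in blood alone, and Hmox1 in none.

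HC and PFC were alike in most of these enzymes. Of 8 tested enzymes, 1 was lower in HC than in PFC and none was higher, where 4.51% of all tested probe sets were higher and 4.66% lower. The enzyme called was Alas2, and HC was below PFC in each rat, by -0.52 in rat 2, -0.74 in rat 5 and -0.72 in rat 7. The fitted difference was -0.66 ± 0.164 (SE; 95% interval -1.03 to -0.29; adjusted p = 0.034), 1.58-fold.

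All HC arrays of Alas2 were below all PFC arrays, but the margin of the call was small. It was lost without a filter on dim probe sets (adjusted p = 0.0648) and with the housekeeping scaling (-0.59, adjusted p = 0.0736). It was also lost without the HC array of rat 2 (adjusted p = 0.11) or rat 7 (0.139), without the PFC array of rat 2 (0.0664) or rat 5 (0.118), and without rat 2 (0.228) or rat 7 (0.172), while the difference ranged from -0.79 to -0.49.

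Of 15 erythroid markers, 4 were lower in HC than in PFC, as Alas2 was, none was higher and 11 were not called, with a median difference of -0.26. The beta globin genes Hbb and Hbb-b1 were lower by -0.97 (adjusted p = 0.0123) and -1.01 (adjusted p = 0.0182). The other 2 were Gypc, a membrane glycoprotein, at -1.42 (adjusted p = 9.88e-05) and Tmod1, an actin-capping protein, at -1.004 (adjusted p = 0.000131). Both were well above the receptor percentiles in brain, with means of 6.18 in HC and 7.60 in PFC for Gypc. Tmod1 had means of 7.53 and 8.53. Whether red cells gave these readings was not tested. Among those not called, the spectrin gene Sptb was at 0.50 (adjusted p = 0.162), and Rhd and Trim10 were close to 0. All the rest of those not called were negative. They ran from Ahsp at -0.50 (adjusted p = 0.0611) and Ank1 at -0.48 (adjusted p = 0.295) to Epor at -0.04 (adjusted p = 0.95).

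Hbb itself read 8.78, 8.90 and 8.38 in HC and 9.56, 10.11 and 9.31 in PFC, so its rat order in both regions was that of Alas2, with rat 5 highest and rat 7 lowest. This order was shared with Alas2 by 5 of the 15 markers in HC, where 13.3% of all tested probe sets had it, and by 3 in PFC, where 9.77% had it. Hbb and Hbb-b1 are both among the 5 and among the 3. In blood, where the values of Alas2 spanned only 0.09, 0 of the 15 markers shared its rat order. The mean of the 15 markers ranged from 5.997 to 6.13 over the HC arrays, from 6.36 to 6.55 over the PFC arrays, and from 10.79 to 11.05 in blood. Defining markers at background in both regions were Ahsp, Rhag, Rhd and Hemgn. The part of red cell RNA in the reading of Alas2 in brain was not tested.

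For the other enzymes no regional difference passed the test. Fech was -0.23 in HC minus PFC (95% interval -0.44 to -0.02; adjusted p = 0.206), and it was negative in each rat. Alas1 was -0.14 (95% interval -0.33 to 0.04; adjusted p = 0.443). Uros was 0.18 (95% interval -0.08 to 0.45; adjusted p = 0.51), and Cpox 0.15 (95% interval -0.26 to 0.56; adjusted p = 0.799). Within rats 2, 5 and 7 the sign was the same in each case, with Alas1 at -0.23, -0.16 and -0.04, Uros at 0.22, 0.14 and 0.19, and Cpox at 0.32, 0.09 and 0.03. The rat as a block in the fit gave no call for these enzymes either. Alad, Urod and Ppox lay between 0.05 and 0.10.

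**Figure D3:**
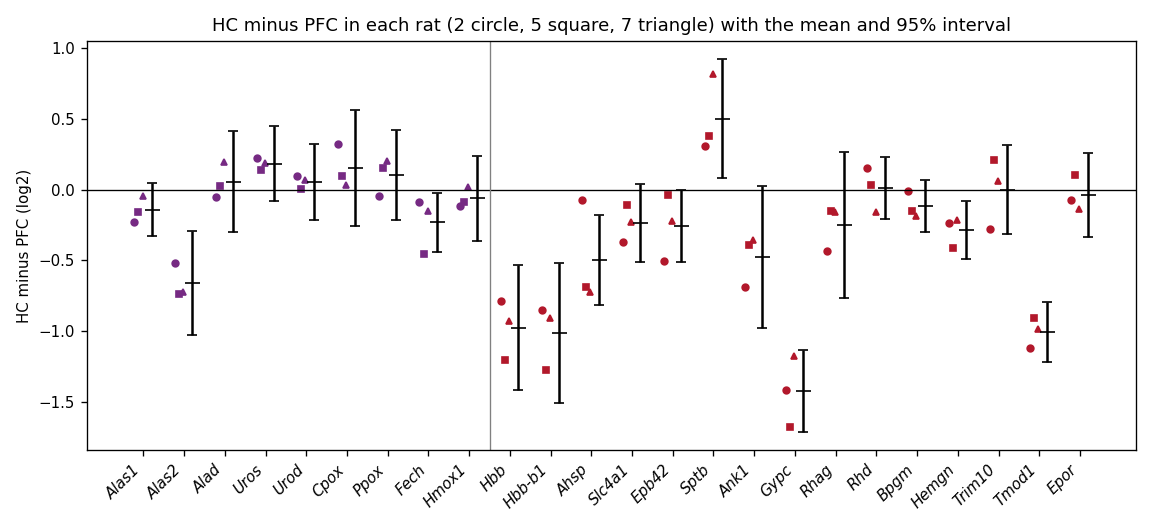
HC minus PFC (log2, vertical axis) in each rat for the 9 enzymes, left of the vertical line, and the 15 erythroid markers, right of it; rat 2 is a circle, rat 5 a square and rat 7 a triangle, and the black bar is the fitted difference with its 95% interval. Among the enzymes Alas2 lies lowest at -0.66, and Gypc lies lowest among the markers at -1.42.

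The blood arrays of the 3 rats differed in the level of some enzymes. Rat 5 was highest, rat 2 next and rat 7 lowest for 5 of the 9 enzymes, namely Alad, Uros, Urod, Cpox and Ppox, where 16.4% of all tested probe sets had this order on the blood arrays. Of 15 erythroid markers, 8 had it. The range over the 3 blood arrays was 0.86 for Cpox, 0.69 for Alad, 0.60 for Ppox, and 0.47 for Urod and for Uros.

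The range in blood was 0.18 for Fech, 0.14 for Alas1 and 0.09 for Alas2, whose blood values were close to the highest on the array. In brain Alas2 had the widest range of the 9 enzymes, 0.52 in HC and 0.54 in PFC. Fech spanned 0.21 in HC and 0.16 in PFC, and Alad 0.26 and 0.01. With 1 blood array per rat, animal and array cannot be told apart, and no test of the order was made.

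**Figure D4:**
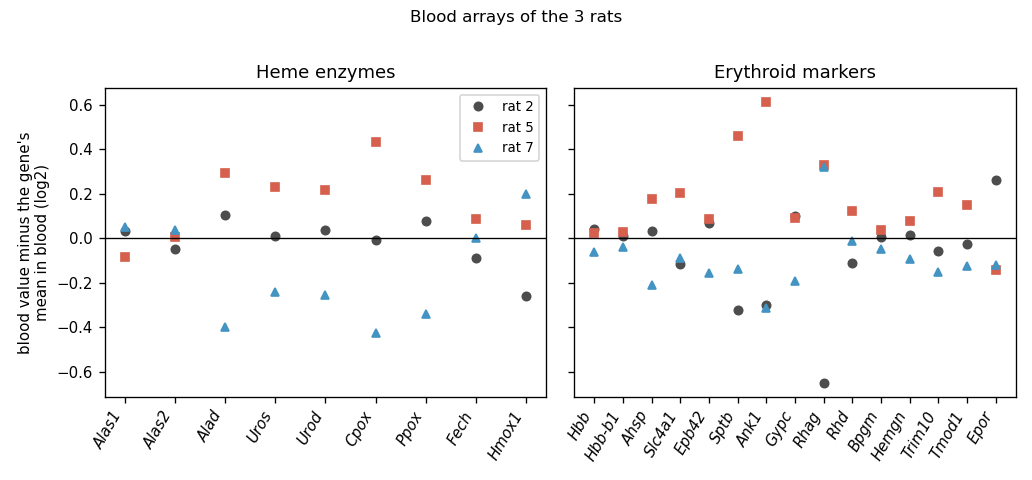
Blood value of each rat minus the gene's mean over the 3 blood arrays (log2, vertical axis) for the 9 enzymes, left, and the 15 erythroid markers, right; each point is 1 array. Rat 5 (squares) lies above rat 2 (circles) and rat 7 (triangles) for Alad, Uros, Urod, Cpox and Ppox, and Alas2 spans only 0.09.

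Of the other heme enzymes, 4 of 6 listed were analysed, and 2 were higher and 2 lower in brain (median -0.05). Over all probe sets tested, 48.8% were higher and 37.4% lower. Hmox2, the constitutive heme oxygenase, read 6.40, 5.46 and 6.17 in blood, 7.25, 7.26 and 7.12 in HC, and 7.44, 7.32 and 7.41 in PFC. The brain arrays were all above the blood arrays, with brain minus blood at 1.29 ± 0.173 (SE; adjusted p = 5.3e-05). Hmox1 was at -0.69, but near background in each tissue. Cox15, which makes heme A for cytochrome oxidase, was higher in brain by 1.16 (adjusted p = 2.71e-06). Neither was called with the housekeeping scaling, at 0.08 for Hmox2 (adjusted p = 0.611) and -0.05 for Cox15 (adjusted p = 0.682). After a further quantile normalization both remained higher, by 1.24 (adjusted p = 0.000849) and 0.70 (adjusted p = 0.000342).

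Enzymes that reduce biliverdin, the product of the oxygenases, were lower in brain. Blvra read 8.32, 8.76 and 7.95 in blood and between 6.96 and 7.18 in brain (-1.26, adjusted p = 2.1e-05). Blvrb read 9.87, 9.80 and 9.40 in blood and between 6.03 and 6.70 in brain (-3.31, adjusted p = 8.11e-09). Neither overlapped between blood and brain.

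Carriers and iron-sulfur proteins that supply the mitochondrial steps were mostly lower in brain. Of 13 on the array, 10 were lower, 2 were higher and 1 was not called, with a median of -2.14. Over all probe sets tested, 37.4% were lower and 48.8% higher. The widest differences were those of Slc25a37 (mitoferrin 1, which brings iron into the mitochondrion of red cell precursors) at -5.37, and Slc25a39, a mitochondrial glutathione carrier, at -4.73 (adjusted p = 1.94e-11 and 1.46e-11). Tspo, an outer membrane protein, was at -3.94 (adjusted p = 2.98e-10), and Glrx5, an iron-sulfur cluster protein, at -3.86 (adjusted p = 2.87e-11). Slc25a39 was also higher in HC than in PFC, by 0.29 (adjusted p = 0.0331), but its 3 HC arrays held an identical value of 8.08. With the housekeeping scaling, 12 of the 13 were lower in brain than in blood and 1 was higher. In that case 69.7% of all probe sets tested were lower. Nfs1 was higher in brain by 0.85 (adjusted p = 2.66e-05), but lower with the housekeeping scaling (-0.36, adjusted p = 0.0146).

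Of the genes for heme uptake, export and scavenging, 9 of 10 listed were analysed and 6 were tested. Brain was higher for 1, lower for 3 and not called for 2, and the median over the 9 was 0.06. These counts stand beside 48.8% higher and 37.4% lower over all probe sets tested. Lrp1, the receptor for heme bound to hemopexin among many other ligands, was higher by 2.98 (adjusted p = 1.65e-09). Slc48a1, which moves heme out of endosomes and lysosomes, was lower by -1.95 (adjusted p = 3.9e-09), Hp, the hemoglobin-binding haptoglobin, by -1.91 (adjusted p = 3.7e-07), and Hebp2, a heme-binding protein, by -0.46 (adjusted p = 0.0228). With the housekeeping scaling, 1 of the 6 was higher and 5 were lower.

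Among 17 regulators on the array, 5 were higher in brain, 11 lower and 1 not called, with a median of -0.72. The shares over all probe sets tested were 48.8% higher and 37.4% lower. The red cell transcription factors Gata1 (-5.63, adjusted p = 1.41e-10), Klf1 (-4.87, adjusted p = 2.93e-10) and Nfe2 (-4.85, adjusted p = 2.14e-11) were lower in brain. In brain Gata1 was at a mean of 4.66 in HC and 4.83 in PFC, under the receptor percentile of both regions, so its difference is only a limit. Eif2ak1, the kinase that slows globin synthesis when heme is short, was lower by -1.38 (adjusted p = 2.71e-06).

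Bach1, a repressor of Hmox1 that heme releases, was lower in brain by -3.46 (adjusted p = 2.95e-10). Nfe2l2 (NRF2), an activator of Hmox1, was lower by -0.63 (adjusted p = 8.82e-05). Keap1, which holds NRF2 back, was higher by 0.33 (adjusted p = 0.00152), but lower with the housekeeping scaling (-0.88, adjusted p = 1.33e-05) and not called after a further quantile normalization (-0.15, adjusted p = 0.11).

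Between the regions, 2 regulators were called. Ppargc1a (PGC-1alpha), a coactivator known to raise Alas1 in liver, was lower in HC than in PFC by -0.35 (adjusted p = 0.0382), with an identical value of 7.56 on all HC arrays. Foxo1, which acts with it in liver, was higher in HC by 0.79 (adjusted p = 0.00338). Against blood, Ppargc1a was higher in brain by 3.12 (adjusted p = 2.22e-10) and Foxo1 lower by -1.17 (adjusted p = 3.16e-06). The mean of Ppargc1a in blood, 4.61, was under the receptor percentile of blood, so its difference is only a limit. Alas1 itself did not pass the test between the regions.

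**Figure D5:**
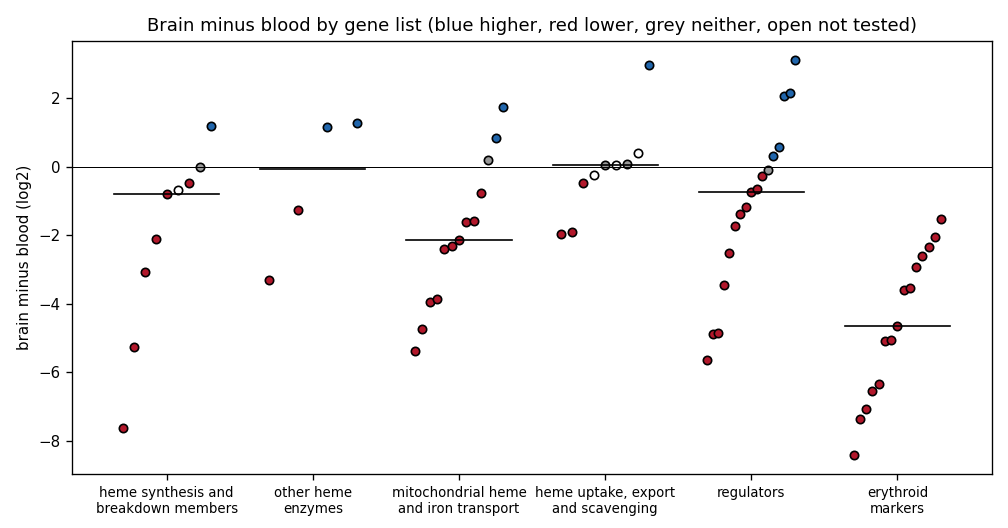
Brain minus blood (log2, vertical axis) of each gene on the array in 6 lists; each point is 1 gene, the horizontal bar is the median of the list, blue points were higher in brain and red points lower, grey points were not called and open points were not tested. The medians run from 0.06 for uptake, export and scavenging to -4.63 for the erythroid markers, with the 9 enzymes at -0.79.

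Genes with the most similar pattern to 3 of the enzymes were found by centring each gene on its own mean over the 9 arrays and taking the root mean square of the difference, over 10564 tested probe sets with 1 symbol. Alas1 was closest to P2rx7 (0.0545), Pafah1b1 (0.0569), Gapdh (0.0581), Psmd2 (0.0588) and Micos10 (0.0588). In each of them, as in Alas1, the means in HC and PFC were above that in blood.

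Alas2 was closest to Hemgn (0.254), Ly6c (0.279), Alox15 (0.292), Slc4a1 (0.352) and Cd3g (0.382). Hmox1 was closest to Eef2kmt (0.0657), Poc1a (0.0869), Nfe2l2 (0.0878), Shmt2 (0.0955) and Mmp28 (0.0977). With 3 tissues that hold most of the variation, these distances describe the tissue pattern and carry no test.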

How the data were processed

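The 9 arrays hold blood, HC and PFC of rats 2, 5 and 7. The paper's methods describe 4 rats with 1 sample omitted and the labels 6, so the animals are counted from the arrays. The authors quantile normalized the probe intensities, summarized them per probe set with RMA and deposited the values, taken here as log2, RMA's usual scale, because the base is not named. They ran from 1.53 to 14.01, with array means of 6.15 to 6.20. The authors' detection p-values were not used here. The precision is limited by 3 arrays per tissue, which are separate animals.

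Symbols came from the platform annotation, brought up to date through RefSeq genes (GRCr8), which matched 15279 of 15310 probe sets with exactly 1 symbol (323 had several and 13581 none). Each gene took its probe set with the highest mean. Tissue was fitted as a factor in limma 3.58.1 (R 4.3.3), with no block, on the 16884 probe sets with a mean above 6.2 in at least 1 tissue. P-values were adjusted by Benjamini-Hochberg over these, with calls at an adjusted p under 0.05. Adjusted p-values all come from limma. An exact permutation test of 3 arrays against 3 cannot go below 0.1, so none is given.

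The labels number the same rat in each tissue. Deviations of same-rat arrays from their tissue means correlated at 0.254, 0.137 and 0.287 between HC and PFC, at 0.0264 to 0.046 between blood and HC, and at -0.0792 to 0.0518 between blood and PFC. The rat as a block was therefore an alternative (random block: statmod 1.5.0).

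The enzymes, the other gene lists and the rule for naming genes were chosen with earlier results of these data known. The rule named all 9 enzymes, per heme list up to 4 genes with the widest brain minus blood difference and up to 2 between the regions, some regulators and enzymes whatever their values, and up to 3 markers per list. One gene of the rule is not reported here. Tmod1, Sptb, Trim10, Ank1, Epor, Keap1, Ireb2, Nfs1, Nrf1 and the markers at background were named after their values were seen. List medians are over all genes on the array. The receptor probe sets, taken as background, have the symbols Olr or Or with a number, Vom1r, Vom2r, Tas1r or Tas2r. Alternatives covered the block, the filter, scaling, background, variance model, arrays in the fit, thresholds, the choice of probe set, and leaving out each array or rat. The procedure was tested on simulated data. Figures were drawn with matplotlib 3.10.9 (Python 3.11.15).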

Additional observations from a re-analysis of the deposited data

Results flagged for a closer look

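The distance of Alas2 from blood differed between the brain regions: HC minus PFC was -0.66 (limma, adjusted p = 0.034) and negative in 3 of 3 rats. Of 15 erythroid markers, 4 were also lower in HC, among them Hbb at -0.97, and 11 were not called. Their part in the difference was not tested.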

How the results depend on the processing

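With arrays scaled on the housekeeping panel, no enzyme was higher in brain, HC or PFC than in blood (0 in each, in place of 1). Alas1 then turned to -0.0053 in brain and -0.0404 in HC minus blood, and Uros to -1.21 in brain and -1.08 in HC. The count of enzymes lower in HC than in PFC fell from 1 to 0 with no filter on dim probe sets, with the housekeeping scaling, at an adjusted p under 0.01 and with a log2 difference above 1, and ranged from 0 to 1 when arrays or rats were left out. A presence limit of 7.2 left 3 enzymes in HC and 4 in PFC. The housekeeping scaling shifts all probe sets of an array alike. Alas1 and Uros therefore kept their distance from the median of all probe sets tested, 0.99 and -0.22 in brain minus blood. What else lies behind these changes was not tested. The rat as a replicate block, fixed or random, changed no call of an enzyme: with the fixed block, 1 enzyme was higher and 6 were lower in brain. Of the other counts of enzymes, 209 stayed within 1.5 times the reported count. Of the differences of single enzymes, 760 stayed on their side of the threshold, and those called kept their direction. Among them, differences that were not called could change sign. A further 24 fell short of the threshold, 8 passed it, and 4 changed direction with a call lost or gained. Alas2 is close to the top of the scale in blood and to background in brain, which limits its fold change, and 3 arrays per tissue limit the smaller differences, such as those of Cpox and Uros.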
